A study of Mus musculus with 4 samples.

Results

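The strain difference in diabetic kidneys was taken as the log2 intensity of the FVB/N diabetic library minus that of the C57BL/6 diabetic library, gene by gene. It uses 2 of the 4 libraries of the series. Each gene was read from the probe that was brightest by its mean over the 4 libraries, and a gene counted as expressed when this mean reached 5.49, the median over all probes, which held for 9201 of 15967 genes. A library here is the 1 column of array values that stands for a group. The FVB/N diabetic and C57BL/6 diabetic groups had 21 days of diabetes, and the FVB/N control and C57BL/6 control groups had received saline. Every group had 6 kidneys from 8-week-old mice of both sexes, and the tissue was whole kidney. As to how diabetes was induced, which C57BL/6 substrain was used, and whether a column is a pool of the 6 kidneys or 1 of them, the sources used here do not give. With 1 library a group there is no replicate error, so no test was made, no p-value is given, and every difference compares these libraries.

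In diabetes, glucose passes the glomerular filter in excess of what the proximal tubule takes back, and the sugar that stays in the urine carries water with it. The tubule responds through glucose, amino acid and salt carriers in its proximal part and through vasopressin-controlled water channels in the collecting duct. FVB/N and C57BL/6 are inbred strains, so each is fixed for its own alleles, including those of the major histocompatibility complex (MHC), and C57BL/6 is known as a strain in which diabetic kidney damage stays mild. A difference between the diabetic libraries can therefore be one that the control libraries show too, or one that they do not show, and each value below stands beside its control value for this reason.

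The libraries carried the marks of kidney. Umod, the uromodulin gene of the thick ascending limb, had 12.48 in the FVB/N diabetic, 12.04 in the C57BL/6 diabetic, 12.52 in the FVB/N control and 12.64 in the C57BL/6 control library. Slc12a1, the salt carrier of the same segment, had 13.12, 13.07, 13.06 and 12.89 in that order of libraries. These levels were close together in all 4 libraries. The intensities ran from 4.45 to 15.84, and values near 5 are near background. All 5 measured Y-linked genes were below the expression minimum on average, so the sex mix of a library could not be read from them. Of the genes that inbred strains are known to differ in, Entpd4 was lower in FVB/N, at -0.97 in the diabetic and -0.86 in the control pair, and Alad was higher, at 0.56 and 0.75. Ide had 0.15 and 0.11 and Glo1 had 0.11 and 0.12, so these hardly differed in either pair. Nnt, which carries a deletion in the C57BL/6J substrain, was near background in all 4 libraries, between 5.02 and 5.18, and says nothing about the substrain here.

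The diabetic libraries stood further apart than the control libraries. At least a 2-fold difference, which is 1 on the log2 scale, was seen for 513 genes higher in FVB/N diabetic kidneys (5.58% of expressed genes) and 453 lower (4.92%), 966 in all (10.5%). Between the control libraries 144 genes were higher in FVB/N (1.57%) and 239 lower (2.60%), 383 in all (4.16%). The standard deviation of the difference across genes was 0.68 in the diabetic pair and 0.49 in the control pair, around medians of -0.08 and 0.01. The differences of the pairs, which share no library, correlated across genes with a Pearson's r of 0.43 and a Spearman's rho of 0.20, where genes are not independent replicates. The values nearest to the 2-fold line were 1.0002 for Ank3, just inside, and 0.997 for Pycrl, just outside, on the higher side. On the lower side Sucla2 had -1.001 and Asb2 had -0.9999, so the line divides nearly equal values. The lower of the diabetic libraries was below the expression minimum for 113 of the 513 higher genes and 67 of the 453 lower ones, and the sizes of these differences are rough figures.

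The genes that were lower in FVB/N diabetic kidneys shared their difference with the controls more often than those that were higher did. Of the 453 lower genes, 146 (32.2%) were also at least 2-fold lower between the controls, with a median of -1.83 in the diabetic and -1.66 in the control pair. Another 238 (52.5%) had controls within 1.5-fold, with medians of -1.16 and -0.06. Of the 513 higher genes, 56 (10.9%) were at least 2-fold higher between the controls, with medians of 1.64 and 1.37, and 395 (77.0%) had controls within 1.5-fold, with medians of 1.27 and 0.06. Read from the control side, 56 of the 144 genes higher in FVB/N controls (38.9%) and 146 of the 239 lower ones (61.1%) were 2-fold apart in the same direction in the diabetic pair. The shares were not tested against each other. The FVB/N diabetic library lay more than 1 log2 above all other libraries for 175 of the 513 higher genes (34.1%) and as far below them for 58 of the 453 lower genes (12.8%). The C57BL/6 diabetic library stood apart in this way for 16 of the 513 (3.12%) and 16 of the 453 (3.53%). Across expressed genes, the standard deviation of the difference was 0.67 between FVB/N diabetic and C57BL/6 control, beside 0.68 in the diabetic pair. It was 0.55 between C57BL/6 diabetic and FVB/N control. Within a strain, diabetic against control, it was 0.55 in FVB/N and 0.39 in C57BL/6. Whether the FVB/N diabetic library is unlike the rest for a technical reason was not tested.

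**Figure D1:**
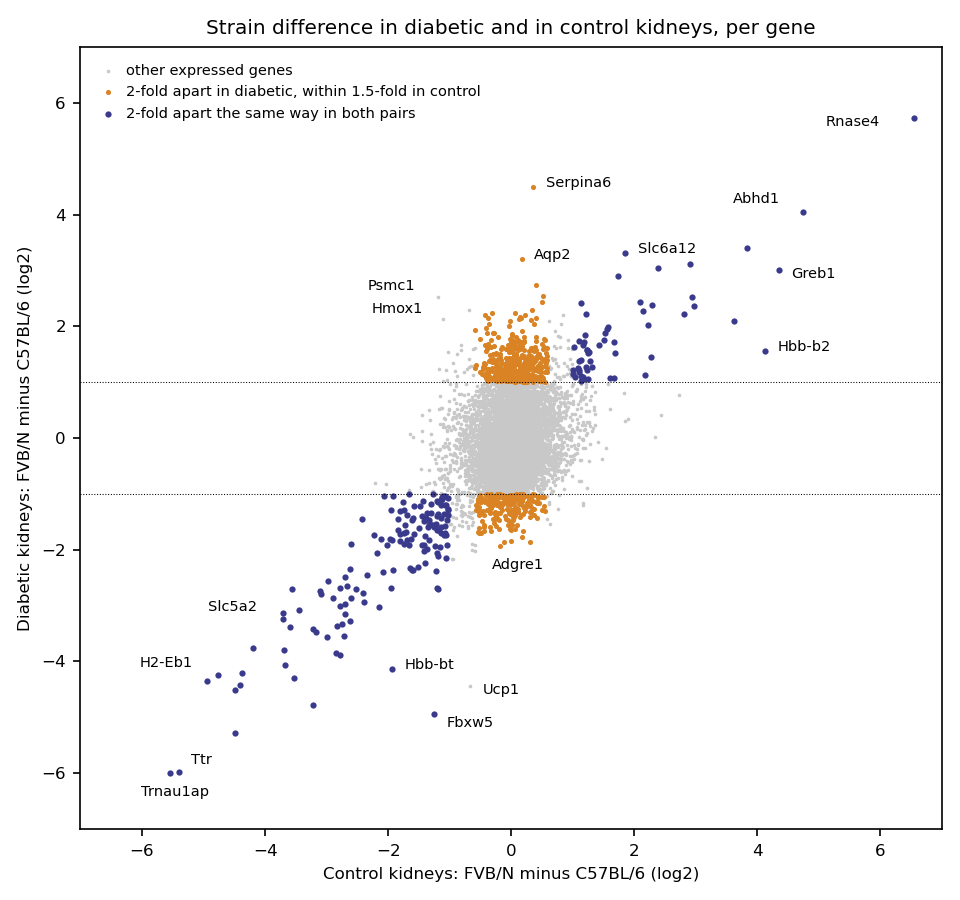
Each point is 1 of 9201 expressed genes, with the FVB/N minus C57BL/6 difference of the control libraries on the x axis and of the diabetic libraries on the y axis, both in log2. Dotted lines mark 2-fold in the diabetic pair; blue points lie along the diagonal, from Trnau1ap at -6.001 to Rnase4 at 5.73, and orange points, such as Serpina6 and Aqp2, lie above or below the middle of the x axis.

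A single probe is an uncertain reading of its gene in these arrays. For 1159 genes with 2 expressed probes, the probes' differences correlated at 0.32 in the diabetic and 0.34 in the control pair, and the standard deviation of 1 probe's difference was 0.58 and 0.41 log2. Where a gene called 2-fold had a further expressed probe, that probe tended to show less. Among the 59 higher genes with controls within 1.5-fold and a second probe, the median was 1.24 by the first and 0.60 by the second. Among the 27 lower genes of this kind the medians were 1.16 and 0.10, with the sign turned so that lower in FVB/N is positive. Genes that were also 2-fold apart in the same direction between the controls faded too. For 18 such lower genes with a second probe the medians were 1.91 and 0.52, turned likewise, and 4 of the second probes passed 2-fold. For 8 such higher genes the medians were 1.76 and 0.91. For this reason genes below are given with further expressed probes where these were read.

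Some of the largest higher values belonged to genes that were also far apart between the controls. Rnase4, a secreted ribonuclease, had 11.01 in the FVB/N diabetic library and 5.27 in the C57BL/6 diabetic library, against 11.42 in the FVB/N control and 4.88 in the C57BL/6 control library, a difference of 5.73 in the diabetic and 6.54 in the control pair. Its second probe gave 4.72 in the diabetic pair. Abhd1, a gene of the alpha/beta hydrolase family, had 11.82 and 7.77 in the diabetic and 12.53 and 7.78 in the control libraries, FVB/N first, and a second probe gave 3.01. Both genes were far brighter in the FVB/N libraries than in the C57BL/6 libraries, whatever the treatment. The C57BL/6 values of Rnase4 were near background, and those of Abhd1 were not. Both FVB/N libraries were also the higher ones for Pik3c2g, a class II phosphoinositide 3-kinase (3.39 in the diabetic and 3.84 in the control pair), Gdpd3, a lysophospholipase D (3.12 and 2.90), Greb1, known as an oestrogen-responsive gene (3.01 and 4.35, with 1.61 in the diabetic pair by the mean of its probes, of which 1 is expressed), D2hgdh, the D-2-hydroxyglutarate dehydrogenase (2.52 and 2.94), and Atp10d, a lipid-transporting ATPase (2.36 and 2.96). Hsd3b2, of the steroid 3-beta-hydroxysteroid dehydrogenase family, differed by 3.05 and 2.38, with other probes at 2.80, 2.30 and -0.03 in the diabetic pair. Near-identical family members make its probes hard to assign.

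Some large higher values were larger in the diabetic pair than between the controls. Slc6a12, the betaine and GABA carrier with which kidney medulla cells take up osmolytes, had 10.12 in the FVB/N diabetic, 6.80 in the C57BL/6 diabetic, 7.85 in the FVB/N control and 6.00 in the C57BL/6 control library. Its difference was 3.32 in the diabetic and 1.85 in the control pair. Prxl2b, a prostamide and prostaglandin F synthase, had 11.38, 8.47, 10.31 and 8.58 in the same order, 2.91 and 1.74 apart. In both, the FVB/N diabetic library was the highest and the C57BL/6 libraries were lowest.

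The largest lower values were mostly shared with the controls. Trnau1ap, a protein of selenocysteine tRNA handling, had 4.78 in the FVB/N diabetic library and 10.78 in the C57BL/6 diabetic library, against 4.97 in the FVB/N control and 10.52 in the C57BL/6 control library, differences of -6.001 and -5.55. Ttr, transthyretin, the carrier of thyroxine and retinol-binding protein, had 6.15 and 12.13 in diabetic and 6.13 and 11.53 in control kidneys, FVB/N first, differences of -5.98 and -5.40. In both the FVB/N values were low, those of Trnau1ap near background, and the C57BL/6 values bright. With values held at or above the minimum, the diabetic difference of Trnau1ap was -5.29. Pttg1, securin, differed by -5.29 in the diabetic and -4.49 in the control pair. Akr1c21, a 17-alpha-hydroxysteroid dehydrogenase, differed by -4.78 and -3.22. Mgst1, the microsomal glutathione S-transferase, had -4.34 and -4.95, and Spink8, of the Kazal-type protease inhibitors, had -4.20 and -4.38. Lipo3, of the lipase family, had -3.88 and -2.78.

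Several of these low values did not hold over all probes of the gene. Mcm6, a subunit of the replicative helicase, differed by -4.51 in the diabetic and -4.49 in the control pair by its brightest probe, but its second probe gave -0.38 and -0.42. Eif3j1, a translation initiation subunit, gave -4.06 and -3.67 by 1 probe and -0.79 and 0.74 by the other. Prdx2, a peroxiredoxin, gave -4.29 in the diabetic pair, with -2.03 by the second probe. Slc5a2, the glucose carrier SGLT2 of the early proximal tubule, is the plainest case. By its brightest probe it had 8.49 in the FVB/N diabetic, 11.73 in the C57BL/6 diabetic, 8.18 in the FVB/N control and 11.89 in the C57BL/6 control library, differences of -3.24 and -3.71. By its second probe it had 8.44, 6.62, 7.39 and 7.10 in the same order, and the differences were 1.82 and 0.29. The probes thus give opposite directions, and no direction is given here for Slc5a2. The same is true of Kyat3, a kynurenine aminotransferase, with 1.78 by its brightest probe and -2.90 by its second one. Arhgap1 and Supt16 also had a second probe at least 2-fold the other way, out of 129 called genes with a further expressed probe. These 3 are named after their values were seen. For 31 of these 129 every other probe passed 2-fold in the same direction, and for 36 some other probe lay on the other side of 0. Probe sequences were not used here, and whether they match the strains' alleles equally was not tested.

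**Figure D2:**
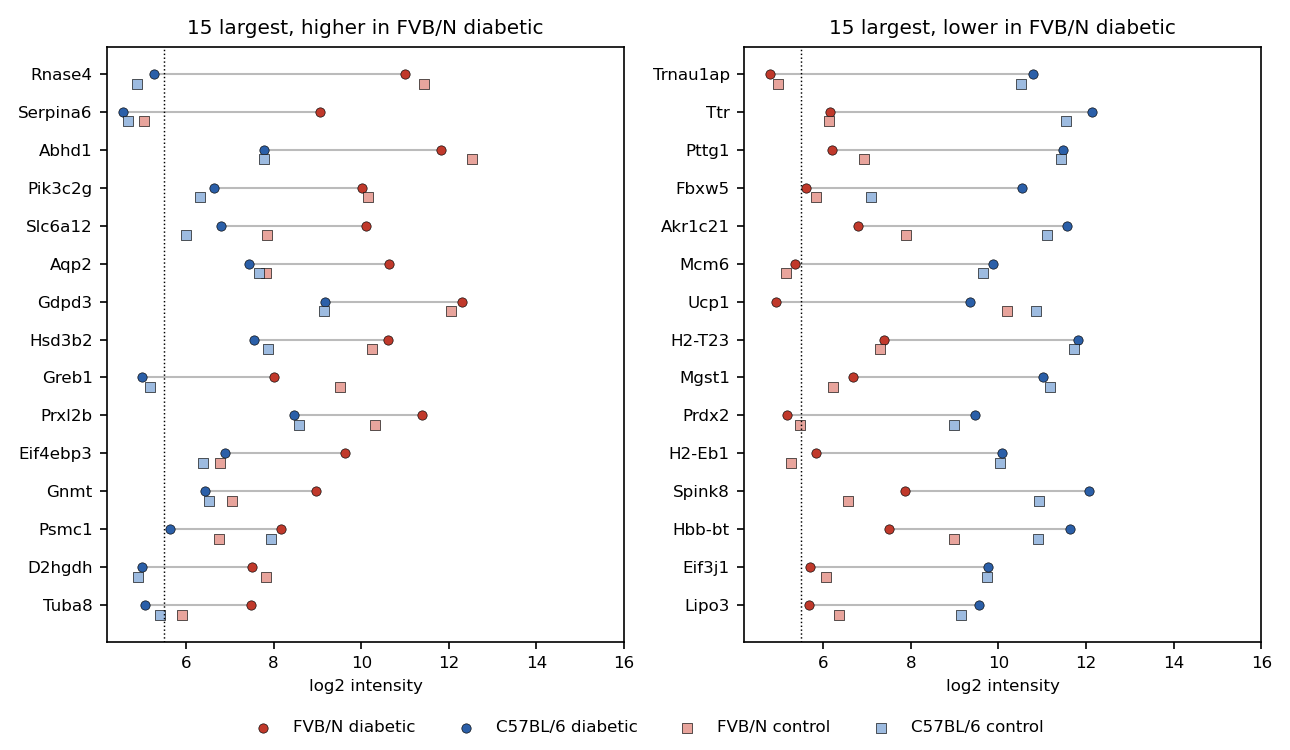
Log2 intensities of the 15 genes with the largest higher and the 15 with the largest lower difference in diabetic kidneys, 1 gene a row. Red and blue circles are the FVB/N diabetic and C57BL/6 diabetic libraries, pale squares the FVB/N control and C57BL/6 control libraries, and the dotted line is the expression minimum of 5.49; for many genes the squares lie near the circles of their strain, with Serpina6, Aqp2, Psmc1 and Ucp1 among those where they do not.

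Other genes were much further apart in diabetes than between the controls. Serpina6, corticosteroid-binding globulin, the plasma carrier of glucocorticoids, had 9.05 in the FVB/N diabetic library, against 4.55 in the C57BL/6 diabetic, 5.04 in the FVB/N control and 4.68 in the C57BL/6 control library, a difference of 4.50 in the diabetic and 0.36 in the control pair. Only the FVB/N diabetic library was above background for it. The 3 low values are near background, so the size of this difference is a rough figure, and with all values held at or above 5.49 it was 3.56. Ucp1, the uncoupling protein of brown fat, was at the other end. It had 4.93 in the FVB/N diabetic library, against 9.36 in the C57BL/6 diabetic, 10.20 in the FVB/N control and 10.87 in the C57BL/6 control library, differences of -4.43 and -0.67. The FVB/N diabetic value is near background, and with values held at or above 5.49 the diabetic difference was -3.87. Fbxw5, a substrate receptor of a ubiquitin ligase, had 5.60, 10.54, 5.83 and 7.08 in this order, -4.95 and -1.25 apart, and the C57BL/6 diabetic library was the highest by far.

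The genes that follow include the largest differences of those with controls within 1.5-fold. Aqp2, the vasopressin-regulated water channel of the collecting duct, had 10.64 in the FVB/N diabetic library and 7.43 in the C57BL/6 diabetic library, with 7.83 and 7.67 in the FVB/N and C57BL/6 controls. The FVB/N diabetic library alone was high, and the difference was 3.21 in the diabetic and 0.17 in the control pair. Since whole kidneys were measured, fewer cells of a type and less RNA per cell cannot be told apart for this or any gene below. Eif4ebp3, a repressor of cap-dependent translation, had 9.62 in the FVB/N diabetic library and 6.88 in the C57BL/6 diabetic library, 6.78 and 6.38 in the controls. Gnmt, the glycine N-methyltransferase that disposes of surplus methyl groups, had 8.96 and 6.43 in the diabetic and 7.05 and 6.53 in the control libraries. For both, the FVB/N diabetic library lay above the other 3, which were within 1 log2 of each other. Tuba8, an alpha tubulin, differed by 2.43 in the diabetic and 0.50 in the control pair, Grem1, a secreted BMP antagonist, by 2.29 and 0.33, Zfp35, a zinc finger protein, by 2.24 and 0.06, and Ogfod2 by 2.24 and -0.31.

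On the lower side, Kap, the androgen-regulated kidney protein of the proximal tubule, had 12.95 in the FVB/N diabetic library and 14.79 in the C57BL/6 diabetic library, with 15.03 and 15.04 in the controls, differences of -1.85 and -0.01. Slc22a26, an organic anion carrier, had 6.32 and 8.18 in the diabetic and 8.61 and 8.31 in the control libraries, differences of -1.87 and 0.30. For both genes the lowest of the 4 values was that of FVB/N diabetic kidneys. Ppp1r14d, an inhibitor of protein phosphatase 1, differed by -1.86 and -0.12, Gas2, a cytoskeletal protein, by -1.76 and 0.17, Thap4 by -1.71 and -0.50, H2bc21, a histone H2B, by -1.70 and -0.52, and Esm1, an endothelial proteoglycan, by -1.68 and -0.54. The mean of all probes was smaller for Adgre1, the macrophage marker F4/80, at -0.84 against -1.93 by its brightest probe, and for H2bc21 at -0.86. Each of these genes has 2 probes, of which 1 is expressed.

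**Figure D3:**
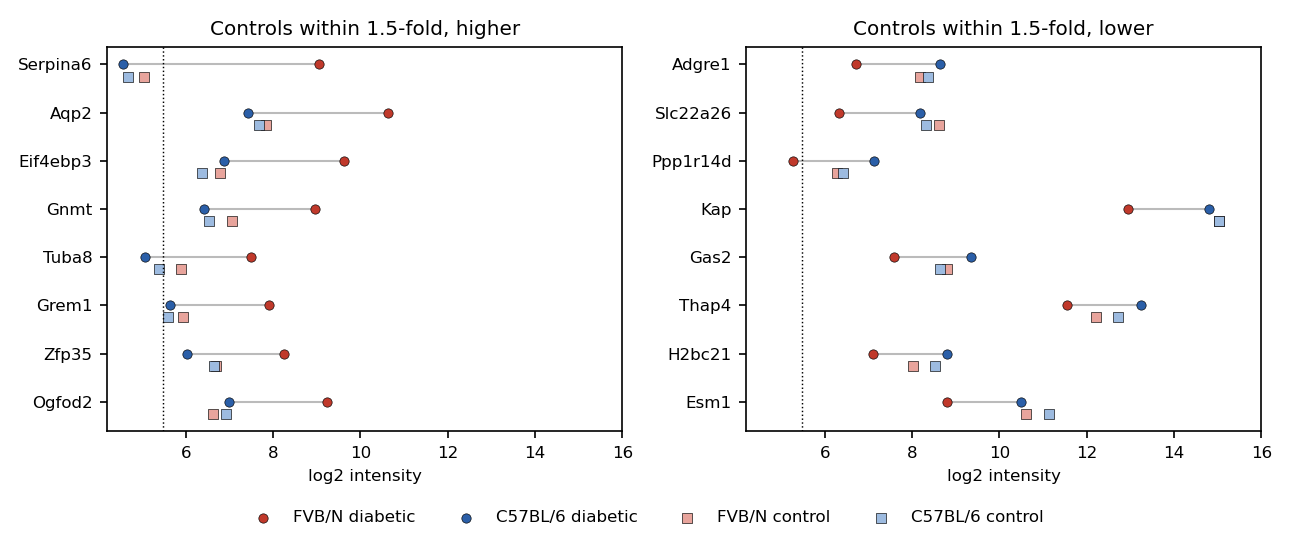
Log2 intensities of the 8 genes with the largest higher and the 8 with the largest lower difference in diabetic kidneys among those whose controls lie within 1.5-fold. Red and blue circles are the FVB/N diabetic and C57BL/6 diabetic libraries, pale red and pale blue squares the FVB/N control and C57BL/6 control libraries, and the dotted line is the expression minimum; in most rows the red circle lies away from the other 3 marks.

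Water, salt and acid-base genes were higher in FVB/N diabetic kidneys more often than they were lower. Among the 38 that were expressed, 15 passed 1.5-fold upward and 4 downward. Over all 9201 genes, 14.7% passed it upward and 16.9% downward, 31.6% together. These shares stand behind every 1.5-fold count of the diabetic pair below. At 2-fold, 10 of the 38 were higher and 0 lower, beside 5.58% and 4.92% over all genes. Those 2-fold shares likewise stand behind the 2-fold counts of the diabetic pair below. The median of these genes was 0.17 in the diabetic pair, beside -0.08 for all genes, and -0.07 in the control pair, where 4 were higher and 4 lower (6.29% and 6.75% over all genes, 13.0% together). Aqp3, the water channel of the basolateral side of the same cells as Aqp2, had 7.96 in the FVB/N diabetic, 5.68 in the C57BL/6 diabetic, 5.30 in the FVB/N control and 5.99 in the C57BL/6 control library. Aqp4, its partner there, had 10.48, 8.26, 10.32 and 9.10 in the same order. The differences were 2.28 for Aqp3 and 2.21 for Aqp4, and 1.22 for Aqp4 between the controls, so part of the Aqp4 difference was also seen without diabetes. Of 13 expressed principal cell markers, 5 were 1.5-fold higher, all of them 2-fold, and 1 was lower. Aqp2, Aqp3 and Aqp4 were among these 5, so this count partly repeats the water channels given above. Scnn1a, a subunit of the epithelial sodium channel, had a difference of 1.51, against 0.44 in the controls. The vasopressin receptor gene Avpr2, named after its values were seen, did not follow, with 7.79 in FVB/N diabetic and 8.09 in C57BL/6 diabetic kidneys. Scnn1g and Scnn1b, further subunits of the sodium channel, differed little, by 0.17 and 0.17 in the diabetic pair. The 1 lower marker was Fxyd4, at -0.69 in the diabetic and -0.61 in the control pair. These genes too are named after their values were seen. Intercalated cell markers had 2 higher and 4 lower of 12, among them Atp6v1c2, a proton pump subunit, at -1.91 in the diabetic and -1.04 in the control pair, and 0 of 11 loop of Henle markers passed 1.5-fold.

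The promoters of the water channel and of the osmolyte carrier were read because both genes stand out in this group, and because vasopressin signals through CREB to CRE sites, tonicity through TonE sites and glucocorticoids through their receptor. They are from RefSeq on GRCm38.p6, which is a C57BL/6J genome, and run from 250 bases before the start to 50 after it, at chr15:99578806-99579105 on the plus strand for Aqp2 and chr6:121342324-121342623 on the plus strand for the first of 5 Slc6a12 starts. Capitals mark, on either strand, the CRE half-site TGACG, the TonE core TGGAAA and the glucocorticoid receptor half-site TGTTCT, none overlapping.
Aqp2: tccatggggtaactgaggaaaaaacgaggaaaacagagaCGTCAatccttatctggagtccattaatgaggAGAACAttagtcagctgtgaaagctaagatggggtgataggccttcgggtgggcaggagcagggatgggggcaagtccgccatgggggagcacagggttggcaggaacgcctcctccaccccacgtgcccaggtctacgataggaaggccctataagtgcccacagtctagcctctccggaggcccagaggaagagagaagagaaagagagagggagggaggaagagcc
Slc6a12: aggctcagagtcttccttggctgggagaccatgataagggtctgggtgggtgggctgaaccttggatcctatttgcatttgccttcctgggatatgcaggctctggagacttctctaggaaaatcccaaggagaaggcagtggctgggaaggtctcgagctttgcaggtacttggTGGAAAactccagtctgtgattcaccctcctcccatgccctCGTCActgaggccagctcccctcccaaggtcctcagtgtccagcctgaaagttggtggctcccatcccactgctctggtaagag
Aqp2 held 1 CRE half-site and 1 glucocorticoid receptor half-site, and Slc6a12 held 1 TonE core and 1 CRE half-site. These short motifs occur in 21.0% (CRE half-site), 21.5% (TonE core) and 19.0% (glucocorticoid receptor half-site) of 27025 promoters, and the letters are a description only.

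**Figure D4:**
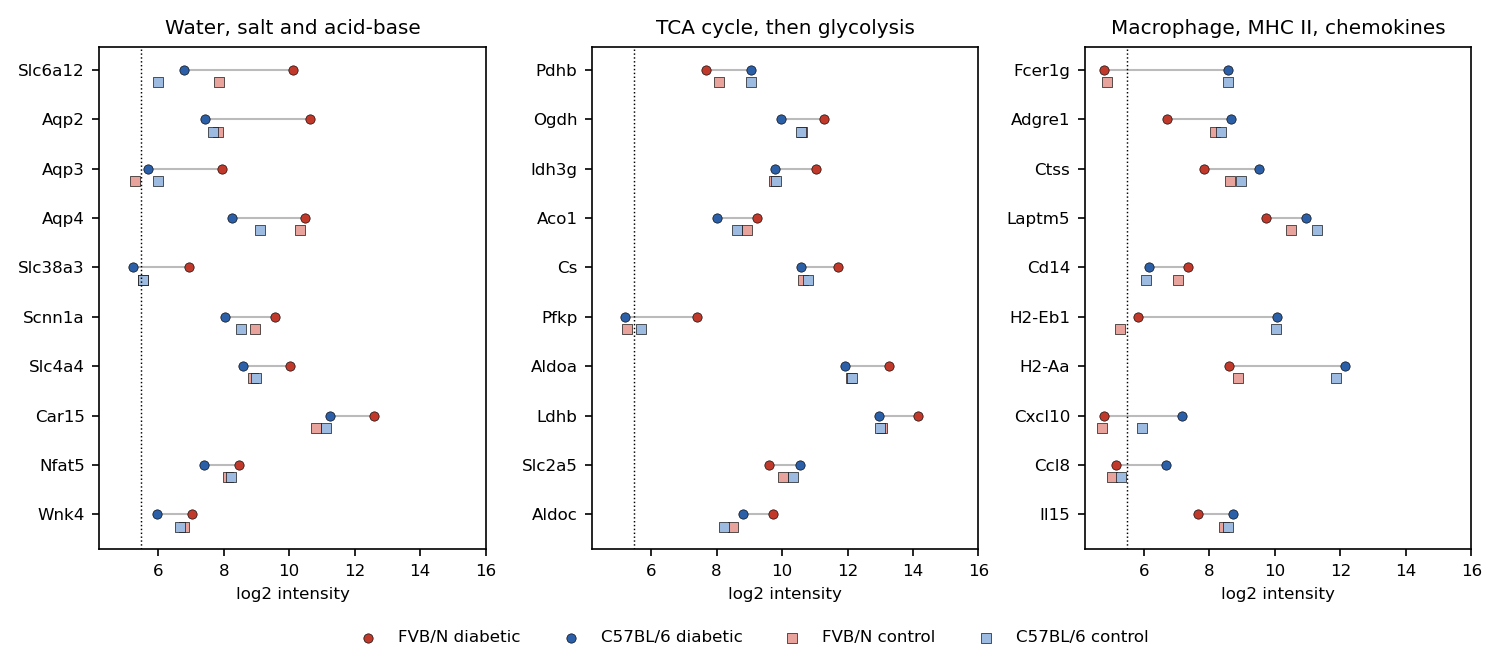
Log2 intensities of members of 3 kinds of gene list: water, salt and acid-base genes, genes of the TCA cycle followed by glycolysis, and macrophage, MHC class II and chemokine genes, each with its largest differences in diabetic kidneys. Circles are the FVB/N diabetic (red) and C57BL/6 diabetic (blue) libraries, squares the FVB/N control and C57BL/6 control libraries, and the dotted line is the expression minimum; red lies mostly right of blue in the first group and mostly left of it in the third.

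Genes of sugar breakdown were more often higher than lower in FVB/N diabetic kidneys. Of 28 expressed glycolysis and gluconeogenesis genes, 12 were 1.5-fold higher and 2 lower, beside 14.7% and 16.9% over all genes. Their median was 0.32, against 0.03 in the controls, where 2 were higher and 1 lower. Pfkp, a phosphofructokinase, had 7.42 in the FVB/N diabetic library and 5.21 in the C57BL/6 diabetic library, against 5.27 and 5.69 in the controls. Aldoa, an aldolase, had 13.27, 11.93, 12.10 and 12.13, and Ldhb, a lactate dehydrogenase subunit, 14.16, 12.95, 13.06 and 13.00, in the order of libraries used above. In all 3 the FVB/N diabetic library was the highest by more than 1 log2 and the other 3 lay close together. Slc2a5, the fructose carrier, went the other way at -0.95. Of 22 TCA cycle genes 9 were 1.5-fold higher, 7 of them 2-fold, and 2 were lower, Pdhb and Sucla2, each by at least 2-fold. The median was 0.26 against 0.08 in the controls, but by the mean of all probes the diabetic median was 0.07. Ogdh, the oxoglutarate dehydrogenase, had 11.29 in the FVB/N diabetic, 9.96 in the C57BL/6 diabetic, 10.61 in the FVB/N control and 10.56 in the C57BL/6 control library. Idh3g, an isocitrate dehydrogenase subunit, differed by 1.27 in the diabetic pair, and Aco1, an aconitase, by 1.24. Pdhb, of the pyruvate dehydrogenase complex, was lower in both pairs, at -1.39 and -0.99. Oxidative phosphorylation did not share this: of 62 genes 6 were higher and 10 lower, with a median of 0.03.

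Of the 48 lists with at least 5 expressed genes, those of lipid synthesis had the highest medians, at 0.51 for fatty acid and 0.46 for cholesterol synthesis in the diabetic pair, against 0.20 and 0.04 in the controls. With a stricter expression minimum of 7.26 the diabetic median of cholesterol synthesis was 0.16. Of 18 fatty acid synthesis genes 7 were 1.5-fold higher and 0 lower, beside 14.7% and 16.9% over all genes. Elovl1, a fatty acid elongase, had 9.88 in the FVB/N diabetic library and 8.64 in the C57BL/6 diabetic library, with 8.52 and 8.67 in the controls, and its other probes gave 2.21 and 1.11 in the diabetic pair. Acaca, the acetyl-CoA carboxylase that starts the pathway, had 9.32, 8.48, 9.96 and 9.83, so here both diabetic libraries were lower than the controls and C57BL/6 the lowest, and its second probe gave -0.01. Fads2, a desaturase, differed by 1.10 in the diabetic and 0.75 in the control pair. Of 19 cholesterol synthesis genes 6 were higher and 2 lower, led by Tm7sf2, a sterol reductase, at 1.44 and Mvd, a mevalonate pathway decarboxylase, at 1.33. Fatty acid oxidation and ketone genes had 8 higher and 7 lower of 30.

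Genes of the glucocorticoid list were more often higher than lower in FVB/N diabetic kidneys. The list holds responsive genes, and also the carrier Serpina6 and the enzymes Hsd11b1 and Hsd11b2. Of 18 expressed, 8 were 1.5-fold higher, 5 of them 2-fold, and 0 lower, beside 14.7% and 16.9% over all genes at 1.5-fold. The median was 0.40, against 0.07 in the controls, where 1 was higher and 4 lower. Serpina6 reached the expression minimum only through the FVB/N diabetic library, so its place among the higher genes was set by the filter. Besides Serpina6 the higher genes were led by Cdkn1a, the cell cycle inhibitor p21. It had 9.03 in the FVB/N diabetic, 7.38 in the C57BL/6 diabetic, 6.05 in the FVB/N control and 5.86 in the C57BL/6 control library. Its second probe gave 1.70 in the diabetic pair, beside 1.65. Lcn2, the lipocalin released by injured tubules, had 9.26, 7.66, 6.38 and 6.42. For both, each diabetic library was above its control and the FVB/N one the higher. Fkbp5, a receptor co-chaperone, had 9.28, 7.91, 8.48 and 8.55, so the C57BL/6 diabetic library was the lowest. Other members of the list did not share the higher values. Sgk1 differed by -0.15 in the diabetic pair, Klf9 by -0.27, Mt2 by -0.20, Hif3a by -0.39 and Dusp1 by 0.13. Tsc22d3 was below the expression minimum. These members are named after their values were seen. Cdkn1a and Lcn2 also stand in the list of tubular injury genes, of which 5 of 20 were higher and 3 lower, with a median of 0.00. Havcr1, the injury marker KIM-1, named after its values were seen, went against Lcn2, with 6.12 in the FVB/N diabetic library and 6.94 in the C57BL/6 diabetic library, 5.19 and 5.20 in the controls. Hmox1, heme oxygenase, had 11.14 in the FVB/N diabetic library and 9.01 in the C57BL/6 diabetic library, against 9.08 in the FVB/N control and 10.19 in the C57BL/6 control library, so its strain order was opposite in the pairs. Tnfrsf12a, the TWEAK receptor, differed by 1.35 and 0.27. Of 22 NRF2 and antioxidant genes 5 were higher and 3 lower, among them Gclc, the glutamate-cysteine ligase, at 1.18 and Nqo1, a quinone reductase, at 1.13, the second probe of Nqo1 giving 0.23.

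In the insulin and IGF list, 5 of 22 were 1.5-fold higher and 5 lower, beside 14.7% and 16.9% over all genes. The large differences were higher: 4 passed 2-fold and 0 were 2-fold lower, beside 5.58% and 4.92% over all genes. These 4 were Eif4ebp3, the translation repressor given above, Igf2r, Pappa and Igf1r. The median of the list was -0.17, below 0 all the same. Igf2r, the mannose 6-phosphate and IGF2 receptor, had 8.01 in the FVB/N diabetic library and 5.88 in the C57BL/6 diabetic library, 7.10 and 6.97 in the controls, so the C57BL/6 diabetic library was the lowest. Pappa, a protease that frees IGFs from their binding proteins, had 7.78 and 5.85 in diabetic, 5.45 and 6.04 in control kidneys, and here the FVB/N diabetic library was the highest. Igf1r, the IGF1 receptor, differed by 1.63 and 0.04, with the 3 values outside the FVB/N diabetic library near background. It reached the expression minimum only through that library, so its place among the higher genes was set by the filter. In the clock genes Dbp, a clock output factor, was lower at -1.96, and -1.15 in the controls, while Arntl, the positive arm of the clock, was higher at 1.72 and 1.19. Cry2, of the negative arm, had 1.65 in the diabetic and -0.28 in the control pair, and the clock list had 2 higher and 3 lower of 14. The time of day of collection is not given per group, though all tissue was collected together by the series text.

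Amino acid carriers were higher more often than lower. At least 1.5-fold, 9 of 30 were higher and 2 lower, beside 14.7% and 16.9% over all genes. Their median was 0.25, against 0.12 in the controls, where 4 were higher and 1 lower. Slc7a7, a basolateral carrier of cationic amino acids, had 10.31 in the FVB/N diabetic, 8.26 in the C57BL/6 diabetic, 9.38 in the FVB/N control and 8.57 in the C57BL/6 control library, and its second probe gave 1.97 beside 2.04. Slc38a3, a glutamine carrier used in acid excretion, differed by 1.70, with 0.01 between the controls. Slc7a12, a carrier known as higher in female kidneys, had 9.87 in the FVB/N diabetic library and 11.43 in the C57BL/6 diabetic library, with 11.43 in both controls, so the FVB/N diabetic library alone was low. Of 22 markers of the early proximal tubule 7 were higher and 2 lower, Slc5a2 with its disagreeing probes among the lower, and the median was 0.14 in both pairs. Organic ion and drug carriers had 5 higher and 8 lower of 29, with a median of -0.08, like that of all genes. By the mean of all probes the median of these carriers was 0.07. Slc22a12, the urate exchanger, was lower in both pairs at -1.31 and -1.80. Phase II conjugation genes had 11 higher and 4 lower of 35, with a median of 0.35 in the diabetic and 0.00 in the control pair. Gstm6, a glutathione transferase, differed by 1.52, Ugt1a2, a glucuronosyltransferase, by 1.72 with other probes at 2.36 and 1.05, and Sult2b1, a sulfotransferase, by 1.80 with a second probe at 0.01. Cytochrome P450 genes were split, 4 higher and 4 lower of 25.

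Macrophage and dendritic cell markers were more often lower than higher in FVB/N diabetic kidneys. Of 15 expressed, 8 were 1.5-fold lower, 5 of them 2-fold, and 1 was higher, beside 16.9% and 14.7% over all genes at 1.5-fold. The median was -0.62, against -0.19 in the controls, where 2 were lower and 2 higher. With a stricter expression minimum of 7.26 the diabetic median was -1.22. The mean level of the 15 was 7.03 in the FVB/N diabetic, 7.72 in the C57BL/6 diabetic, 7.12 in the FVB/N control and 7.38 in the C57BL/6 control library. The C57BL/6 diabetic library had the highest mean. Fcer1g, the signalling chain of Fc receptors, had 4.77 in the FVB/N diabetic library and 8.57 in the C57BL/6 diabetic library. With 4.86 and 8.56 in the controls, it was as far apart without diabetes. It reached the expression minimum only through the C57BL/6 libraries, so its place among the lower markers was set by the filter. Adgre1 had 6.72, 8.65, 8.18 and 8.36 in the order used above, and Ctss, a lysosomal protease of antigen-presenting cells, had 7.85, 9.51, 8.63 and 8.96. For these genes the lowest of the 4 values was that of FVB/N diabetic kidneys. Laptm5, a lysosomal protein of blood cells, differed by -1.22 and -0.78, and Cd14, a co-receptor for bacterial lipopolysaccharide, was the 1 marker at least 1.5-fold higher in FVB/N, at 1.22 and 1.01. C1qb and C1qa, complement chains made by macrophages, were at 0.36 and 0.31 in the diabetic and -0.24 and -0.23 in the control pair. These 3 are named after their values were seen. Itgax, Ccr2 and Itgam were below the expression minimum. Lymphocyte markers had 2 lower and 0 higher of 6.

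The MHC genes with the largest differences, H2-Eb1, H2-Aa and H2-T23, differed alike in both pairs. Some others did too, such as H2-T22 (-1.53 and -1.32) and H2-T10 (-1.37 and -1.03), and some did not. H2-Eb1, the beta chain of a class II molecule, had 5.83 in the FVB/N diabetic library and 10.08 in the C57BL/6 diabetic library, 5.27 and 10.02 in the controls. H2-Aa, a class II alpha chain, had 8.59, 12.14, 8.87 and 11.86, and H2-T23, the non-classical class I molecule Qa-1, had 7.39, 11.81, 7.30 and 11.72, in the order of libraries used above. The C57BL/6 values were high whatever the treatment and the FVB/N values low. The strains carry different MHC haplotypes, and whether the probes read both equally was not tested. H2-DMb1, of the class II loading machinery, was higher in FVB/N at 1.08 in the diabetic and 1.61 in the control pair. Tap2, a subunit of the peptide carrier for class I loading, differed by 1.19 and 0.26. Of 9 class II genes 3 were lower and 2 higher in the diabetic pair, and 3 and 2 between the controls, though not all were the same genes. Ctss was among the lower in the diabetic pair only, and H2-Ab1 between the controls only, at -0.12 and -0.75. Of 13 class I genes 6 were lower and 2 higher, against 4 and 0 between the controls, and H2-T22 had a second probe at 0.03 beside -1.53. Interferon-stimulated genes had 8 of 20 lower and 2 higher, beside 16.9% and 14.7% over all genes. Their median was -0.31, against -0.24 in the controls, where 5 were lower and 1 higher. Ifi27l2a differed by -2.02 in the diabetic and -0.59 in the control pair, Ifit3, an antiviral protein, by -1.82 and -1.34, Trim30a by -1.63 and -1.17, and Irgm1, an interferon-induced GTPase, by -1.06 and 0.04. Chemokines and cytokines had 8 lower and 3 higher of 20, with a median of -0.26, against 2 and 3 with 0.04 in the controls, and the diabetic median was 0.03 with the stricter minimum. Cxcl10, an attractant of T cells, had 4.79 in the FVB/N diabetic library and 7.17 in the C57BL/6 diabetic library, 4.73 and 5.95 in the controls. Ccl8, an attractant of monocytes, had 5.15, 6.67, 5.02 and 5.29, so it was above background in the C57BL/6 diabetic library only. Cxcl10 and Ccl8 reached the expression minimum only through C57BL/6 libraries, so their place among the lower genes was set by the filter.

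Matrix genes also held large differences that the controls shared. Sparc, a collagen-binding matrix protein, had 7.92 in the FVB/N diabetic, 11.46 in the C57BL/6 diabetic, 8.22 in the FVB/N control and 10.94 in the C57BL/6 control library. Col1a2, a type I collagen chain, was at 4.97 and 7.77 in diabetic, and 5.32 and 8.42 in control kidneys. Col3a1, a type III collagen chain, had 8.16 and 9.75 in diabetic and 8.63 and 8.97 in control kidneys, differences of -1.59 and -0.34. Over the 38 matrix and TGF-beta genes 3 were higher and 7 lower, beside 14.7% and 16.9% over all genes. The median was -0.00 in the diabetic pair, so the list as a whole was near the median of all genes. Fibroblast markers had 2 higher and 3 lower of 9, with a median of -0.46.

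Genes best known from liver were more often lower than higher in FVB/N, in diabetes and in controls. Of 11 expressed, 6 were 1.5-fold lower, 5 of them 2-fold, and 2 higher, beside 16.9% and 14.7% over all genes at 1.5-fold. The median was -0.99 in the diabetic and -0.68 in the control pair, where 6 were lower too. Without the filter on low values the diabetic median was -0.24. Besides Ttr, Serpina1a, an alpha-1-antitrypsin, had 8.07 in the FVB/N diabetic, 11.40 in the C57BL/6 diabetic, 8.30 in the FVB/N control and 11.05 in the C57BL/6 control library, with -3.59 by a second probe against -3.33. Apoa2, an apolipoprotein of high-density lipoprotein, had 6.38, 9.06, 5.80 and 8.58. Apoc3 differed by -1.48 and -1.42. The albumin gene Alb, with Ahsg and Fgb, was below the expression minimum. Serpins and other protease inhibitors had 12 lower and 4 higher of 31, and Serpina3n, an acute-phase serpin, was higher at 2.43 and 2.09. The Serpina1 genes are near-identical copies, so their probes cannot be assigned with certainty.

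The libraries also differed in genes of fat and of blood. The mean level of 9 brown and white fat genes was 7.15 in the FVB/N diabetic, 7.64 in the C57BL/6 diabetic, 8.72 in the FVB/N control and 8.62 in the C57BL/6 control library, so both diabetic libraries were lower. Car3, a carbonic anhydrase abundant in fat and muscle, had 7.89, 9.43, 11.06 and 10.42, and Cidea, which coats lipid droplets in brown fat, had a difference of 0.93 in the other direction. The part of fat tissue in the Ucp1 difference was not tested. Hbb-bt, a beta globin, had 7.50 in the FVB/N diabetic library and 11.64 in the C57BL/6 diabetic library, with 8.97 and 10.91 in the controls, while Hbb-b2, a near-identical beta globin, was higher in FVB/N at 1.55 and 4.13. The alpha globin Hba-a1, named after its values were seen, was nearly equal in the diabetic libraries, at 12.69 and 12.66. Genes higher in male kidneys had 4 higher and 3 lower of 13 and genes higher in female kidneys 4 higher and 2 lower of 13. The diabetic median of the male list was 0.45, but 0.01 without the filter on low values. Kap and Cyp4a12a, a P450 of fatty acid hydroxylation, both male-biased, differed in opposite directions, with Cyp4a12a at 8.43 in the FVB/N diabetic, 6.46 in the C57BL/6 diabetic, 5.88 in the FVB/N control and 6.29 in the C57BL/6 control library.

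**Figure D5:**
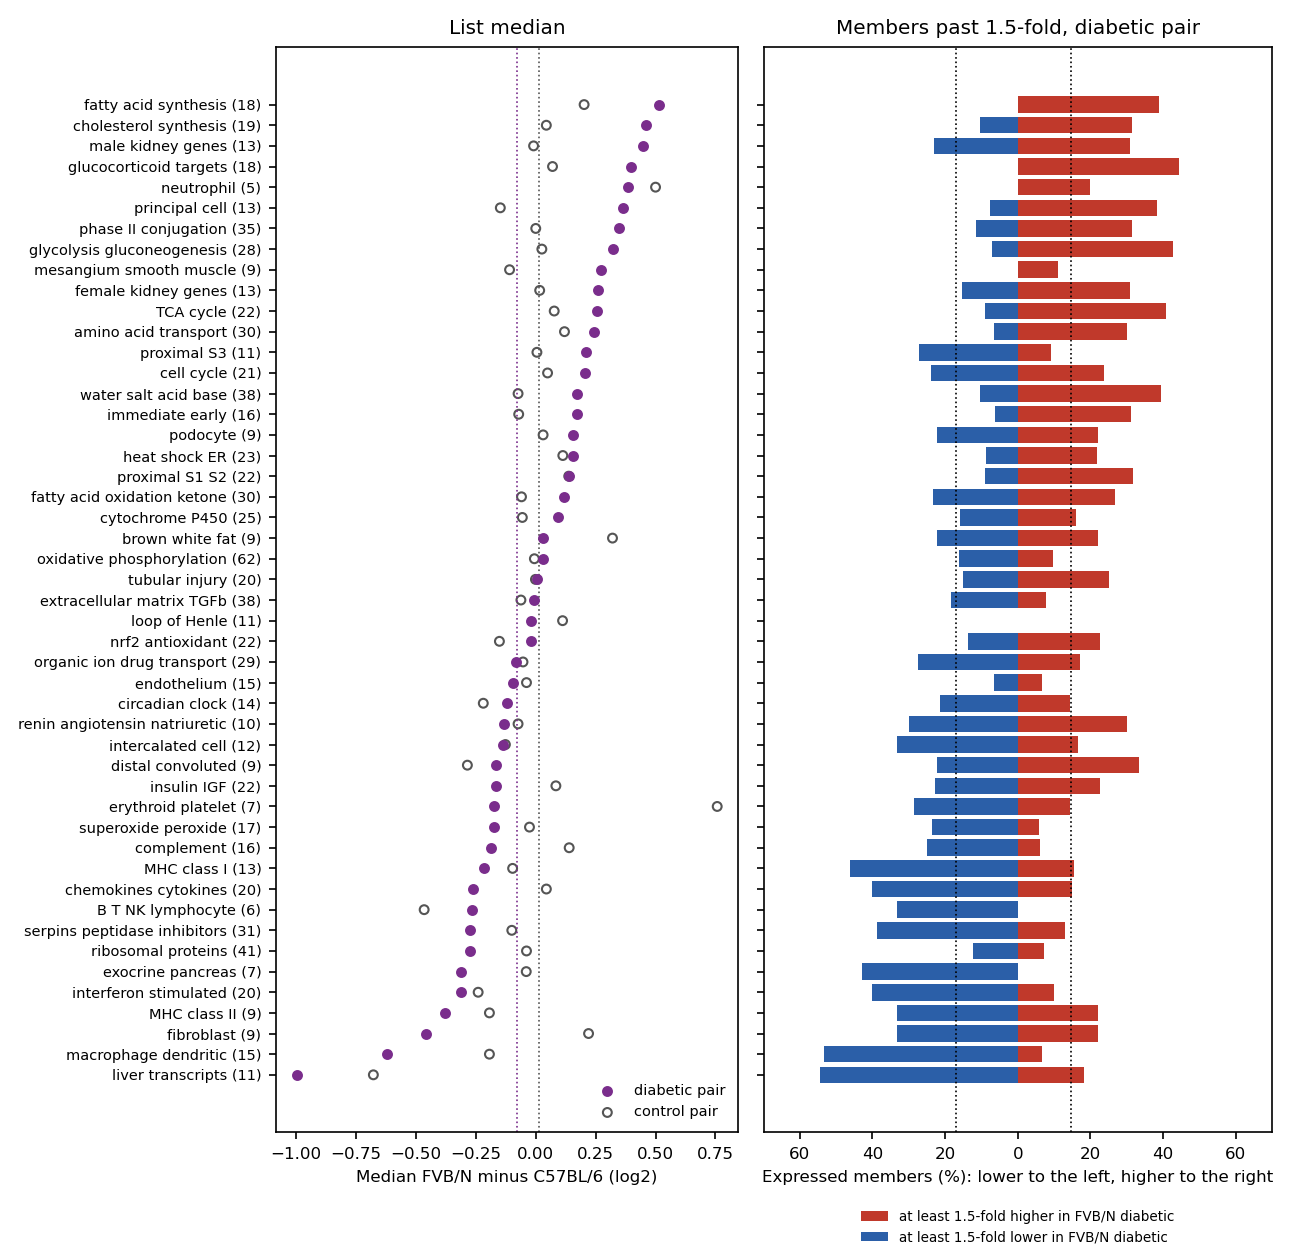
Medians of the FVB/N minus C57BL/6 difference for each gene list with at least 5 expressed genes, with the number of expressed genes in brackets; filled points are the diabetic pair and open points the control pair, and dotted lines on the left give the medians of all genes, -0.08 and 0.01. On the right, bars give the share of expressed members at least 1.5-fold higher (red) and lower (blue) in FVB/N diabetic kidneys, with dotted lines at the 14.7% and 16.9% of all genes. By the diabetic median, lipid synthesis, male kidney and glucocorticoid lists are highest, and liver and macrophage lists lowest.

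Single genes of other lists complete the description. Pdia4, an endoplasmic reticulum chaperone, was higher at 1.76 against 0.11 in the controls, in a list with 5 higher and 2 lower of 23. Klf4, a transcription factor of the immediate early list, was lower at -1.37, and Jun higher at 1.17, with 5 higher and 1 lower of 16. Rpl29, a ribosomal protein, was lower in both pairs at -3.00 and -2.78, in a list of 41 with 3 higher and 5 lower. Rps9, another one, had -0.88 by its brightest probe, but 4 other probes gave 0.79 to 1.17. Cell cycle genes had 5 higher and 5 lower of 21, renin-angiotensin and natriuretic genes 3 and 3 of 10, podocyte markers 2 and 2 of 9, and endothelial markers 1 and 1 of 15. In the last 4 lists neither direction outnumbered the other. Over all genes 14.7% were 1.5-fold higher and 16.9% lower.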

How the data were processed

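Total RNA from kidneys was amplified to biotinylated cRNA, stained with streptavidin-Cy3 and read on Illumina bead arrays, per the labels' protocols. The deposited series matrix was taken to hold log2 intensities, from its range, and its 4 columns are distributed nearly alike. The sources used here do not give the authors' background correction, normalization or detection filter. The values were used as deposited. Of 24613 probes, 20984 had exactly 1 gene symbol in the platform annotation, 1 had several and 3628 had none; 20968 gene identifiers matched the reference gene table, with 0 differing symbols. The number of arrays, 1 a group, limits the precision of every value.

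Differences are FVB/N minus C57BL/6 of log2 values, with Python 3.11.15, pandas 2.3.3, numpy 2.4.6 and statsmodels 0.14.6; the calculation was tested on simulated data. Genes named were the 15 largest differences in each direction, the 8 largest in each direction with controls within 1.5-fold, the 8 largest in each direction by the smaller of the diabetic and control differences, up to 4 in each direction with opposite signs in the pairs, up to 4 members of each list described, and strain, X and Y checks. Gene models were skipped. The members, the 52 gene lists and this rule were chosen with earlier results of these data known. There were 8 alternatives: quantile normalization, median centring, loess centring with a span of 0.3, no filter, a filter at percentile 75, the mean of all probes, the brightest probe by the diabetic libraries, and values floored at the minimum.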

Additional observations from a re-analysis of the deposited data

Results flagged for a closer look

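Of the genes 2-fold apart in diabetic kidneys, 23 that were higher and 9 that were lower in FVB/N had controls at least 1.5-fold apart the other way. The 4 genes in each direction with the largest opposite differences, by the smaller of the values in the diabetic and control pairs and without gene models, are given here, and with 1 library a group the difference between the pairs was not tested. FVB/N was higher in diabetes and lower in controls for Psmc1, an ATPase of the proteasome (2.53 in the diabetic and -1.19 in the control pair), Hmox1 (2.13 and -1.11), Samd4b (1.24 and -1.17) and Pou6f1, a transcription factor (1.22 and -1.06). FVB/N was lower in diabetes and higher in controls for Pf4, platelet factor 4 (-1.19 and 1.16), Kcne1l (-1.02 and 0.78), Pask, a kinase with a PAS domain (-0.91 and 0.86), and Bphl (-0.90 and 1.23). Psmc1 had 8.17 in the FVB/N diabetic, 5.64 in the C57BL/6 diabetic, 6.74 in the FVB/N control and 7.93 in the C57BL/6 control library. Pf4 had 6.04, 7.23, 7.22 and 6.06 in the same order, so the FVB/N diabetic and the C57BL/6 control library were the low ones.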

How the results depend on the processing

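Counts of genes 2-fold apart were 437 to 598 higher and 359 to 460 lower under every alternative but the stricter filter, which raised the minimum to 7.26 and gave 241 higher and 282 lower, with 26 higher and 84 lower also 2-fold in the controls; fewer genes were tested there. The higher share of the calls was 53.1%, with loess centring 60.8% and with the stricter filter 46.1%. List medians stayed within 0.58 log2 of those given except for macrophage markers (-1.22 with the stricter filter) and liver genes (-0.24 without a filter). Of 48 lists, 11 changed the sign of their median under some alternative, 4 of them with a median of at least 0.2 in size: MHC class I (0.10) and late proximal tubule (-0.05) without a filter, chemokines (0.03) and cell cycle (-0.04) with the stricter filter. The 49 genes named for large, shared or opposite differences kept their sign under the alternatives run on them. Genes named for their list or their probes, among them Rps9, Slc5a2 and Kyat3 with probes of opposite direction, were not run. The mean of all probes moved Adgre1 to -0.84, Eif3j1 to -1.53, Greb1 to 1.61, H2bc21 to -0.86, Hsd3b2 to 1.58, Mcm6 to -1.80 and Prdx2 to -3.16. Held at the minimum, Serpina6 gave 3.56 and Trnau1ap -5.29. The cause of these moves was not tested, apart from the number of genes. No paired analysis was possible because each group has 1 library.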

Other observations

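Probes without an annotated gene behaved much like named ones. Of 1477 such expressed probes, 103 were 2-fold higher and 70 lower in FVB/N diabetic kidneys, 11.7% together.

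Runs of at least 3 neighbouring expressed genes called in the same direction occurred at 3 places. Serpina1b, Serpina1d and Serpina1a on chromosome 12 were lower at -1.15, -1.74 and -3.33, and also between the controls. Cetn3, Mef2c and Tmem161b on chromosome 13 were lower at -1.06, -1.31 and -1.23, with controls at 0.15 to 0.32. Rab22a, Vapb, Gnas, Nelfcd and Ctsz on chromosome 2 were higher at 1.02, 1.08, 1.24, 1.54 and 1.20, and of these only Nelfcd passed 2-fold between the controls, at 1.26.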
